A study of Caenorhabditis elegans with 22 samples.

Results

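mtl-1 and mtl-2 are the genes of the Caenorhabditis elegans metallothioneins described here, 2 of the 19983 protein-coding genes of the WBcel235 annotation (build ce11). The rule that names them, inducible intestinal genes of the same family, uses no measured value, though earlier results of these data were known when they were picked. mtl-1 lies on chromosome V at 6691371 to 6691863 and mtl-2 on chromosome V at 14018270 to 14018673. Each was read in the 41 bins of 1 kb formed by its own bin and 20 kb on either side, and in the 10 kb bin of the deposited grid that holds it, so that 2 of 10030 nuclear 10 kb bins are at issue. The bin of mtl-1 spans chromosome V 6690001 to 6700000 and that of mtl-2 spans 14010001 to 14020000.

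Metallothioneins are small, cysteine-rich proteins that bind metal ions such as zinc, copper and cadmium. In C. elegans both genes are induced in the intestine by metals and by heat, under control of the intestinal GATA factor ELT-2, and mtl-1 is also a known target of the insulin-pathway factor DAF-16. EMR-1, the worm emerin, sits in the inner nuclear membrane, so DNA close to it lies at the nuclear periphery. CEC-4 is a chromodomain protein of the nuclear envelope that anchors chromatin methylated on histone H3 lysine 9, and MRG-1, of the MRG15 family, has a chromodomain and acts on active chromatin.

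The assay was DamID, in which a bacterial methylase fused to a protein marks GATC sites near that protein, and methylated fragments are amplified and sequenced. It reports contact, not expression, so neither the intestinal origin of the signal nor the knockdown of mrg-1 could be checked against RNA. The series holds 8 groups with 22 libraries of L1 larvae in 4 backgrounds. Wild-type larvae were from strains GW1377 (Dam::EMR-1) and GW1378 (GFP::Dam) on control RNAi, and the cec-4(ok3124) larvae were from GW1379 (Dam::EMR-1) and GW1380 (GFP::Dam) on control RNAi, with 3 libraries per fusion. The same strains on mrg-1 RNAi gave the mrg-1 background, with 2 libraries per fusion (replicates 2 and 3), and the combination of mrg-1 RNAi with cec-4(ok3124), with 3 per fusion. All strains carried Pelt-2::FLP, which restricted the fusions to cells where the elt-2 promoter is active. They were expressed at trace levels from the hsp-16.41 promoter without heat shock. RNAi feeding of the mothers lasted 66 h at 20 °C, and about 20000 hatched larvae per culture were fed for 2.5 h. The larvae of a library are a pool, each genotype rests on a single strain per fusion, and no metal was applied.

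GFP::Dam libraries held 5029613 to 18737218 reads and Dam::EMR-1 libraries 2246126 to 11187085. A single 10 kb bin held 7.04% to 31.2% of the reads of a GFP::Dam library and 0.624% to 1.84% of a Dam::EMR-1 library. In the GFP::Dam libraries the bin signal at the cec-4 gene was 8.14 to 27.5 CPM (counts scaled to the library total) in the cec-4 strains and 17.05 to 57.4 CPM in the others, so the ranges overlapped. Dam::EMR-1 signal there was not lower in the cec-4 strains. It was 6.34 to 8.95 CPM in cec-4 and 16.4 to 29.3 CPM in the combination. In wild type it was 1.78 to 7.12 CPM, and with mrg-1 RNAi 0.397 to 12.9 CPM.

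The question for each gene was how much Dam::EMR-1 contact its surroundings show relative to GFP::Dam, which stands for general accessibility, and whether that ratio differs between backgrounds. Around mtl-1 the DNA was poor in reads and its 10 kb bin showed no ratio that could be told from equality in any background. Around mtl-2 the ratio in the 10 kb bin was called lower in all 4 backgrounds, and in wild type few bins in that outer part of chromosome V were lower still. Most of the reads behind that low ratio lay on the neighbouring RNA helicase gene ddx-17, not on mtl-2. No difference between backgrounds passed the test at either gene.

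The 10 kb bin of mtl-1 held 585 GFP::Dam reads over 11 libraries and 317 Dam::EMR-1 reads over 11 libraries. Only 9.18% of the 10 kb bins of the genome had fewer GFP::Dam reads. In wild type the Dam::EMR-1 libraries held 92, 14 and 0 reads in replicates 1, 2 and 3, against 48, 67 and 48 in the GFP::Dam libraries. The first Dam::EMR-1 library stood far above the other 2, and the groups overlapped. With mrg-1 RNAi the Dam::EMR-1 libraries held 33 and 8 reads and the GFP::Dam libraries 62 and 23, in replicates 2 and 3. In cec-4 larvae they held 32, 40 and 19 reads against 49, 75 and 29. In these backgrounds each Dam::EMR-1 library held fewer reads than its GFP::Dam partner, before scaling for depth. In the combination they held 3, 46 and 30 reads against 86, 65 and 33, and the first replicate had the fewest.

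The ratios of mtl-1 in the edgeR quasi-likelihood fit, as log2 of Dam::EMR-1 over GFP::Dam ± SE, were 0.56 ± 1.10 in wild type, -0.51 ± 1.10 in cec-4, -0.59 ± 1.36 with mrg-1 RNAi and -0.84 ± 1.10 in the combination. Neighbours in this order differed by less than an SE. Adjusted p-values by Benjamini-Hochberg in edgeR were 0.683, 0.734, 0.742 and 0.544. None passed 0.05, the threshold used for every call here, and the lowest unadjusted p was 0.453. DESeq2 also called none. The 95% intervals ran from -1.73 to 2.85 in wild type, from -2.79 to 1.78 in cec-4, from -3.41 to 2.24 with mrg-1 RNAi and from -3.14 to 1.46 in the combination. Enrichment or depletion of several fold would not have been detectable at this depth.

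The sign of the wild-type value at mtl-1 rested on replicate 1. The pair values, log2 of the ratio of CPM + 1 between the Dam::EMR-1 and GFP::Dam libraries of the same replicate number, were 2.47, -1.37 and -2.55 in replicates 1, 2 and 3. Without the Dam::EMR-1 library of replicate 1 the fitted ratio was -1.69 (edgeR adjusted p = 0.253). The authors' deposited table gives 1.15 for this bin in wild type. That value is the log2 of the mean over replicates of a ratio, and replicate 1 supplied 94.9% of the sum. For the other backgrounds the authors' deposited table gives -0.69 with mrg-1 RNAi, 0.11 in cec-4 larvae and -0.53 in the combination.

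The 10 kb bin of mtl-2 held 29135 GFP::Dam reads over 11 libraries, more than 95.3% of 10 kb bins, and 1140 Dam::EMR-1 reads. In wild type the Dam::EMR-1 libraries held 7, 88 and 24 reads in replicates 1, 2 and 3, against 2277, 2116 and 1635 in GFP::Dam. With mrg-1 RNAi they held 81 and 34 reads against 2217 and 1715 in replicates 2 and 3. Every Dam::EMR-1 library was far below every GFP::Dam library. In cec-4 larvae they held 74, 242 and 121 reads against 2779, 2358 and 5139. In the combination they held 19, 239 and 211 reads against 3951, 2119 and 2829. Scaled for depth the separation held too, with 2.79 to 55.5 CPM in Dam::EMR-1 and 165 to 421 CPM in GFP::Dam.

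The ratio of the mtl-2 bin was -3.87 ± 0.79 (SE) in the combination, -4.15 ± 0.80 in cec-4, -4.40 ± 0.81 in wild type and -4.68 ± 1.00 with mrg-1 RNAi, and neighbours in this order differed by less than an SE. It was called lower in edgeR in all 4, with adjusted p-values of 0.000927, 0.000751, 0.000300 and 0.00222. Such a call was common: 29.0% of the 9960 tested 10 kb bins were called lower in wild type, 21.1% with mrg-1 RNAi, 20.3% in cec-4 larvae and 22.9% in the combination. Its size was less common, since 6.75% of the 2060 tested bins of chromosome V had a lower value in wild type. Of the 696 tested bins in the same outer part of the chromosome, when it is divided into 3 equal lengths, 0.718% were lower. The authors' deposited table gives -4.40 in wild type, -4.66 with mrg-1 RNAi, -3.66 in cec-4 larvae and -3.59 in the combination for this bin.

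**Figure D1:**
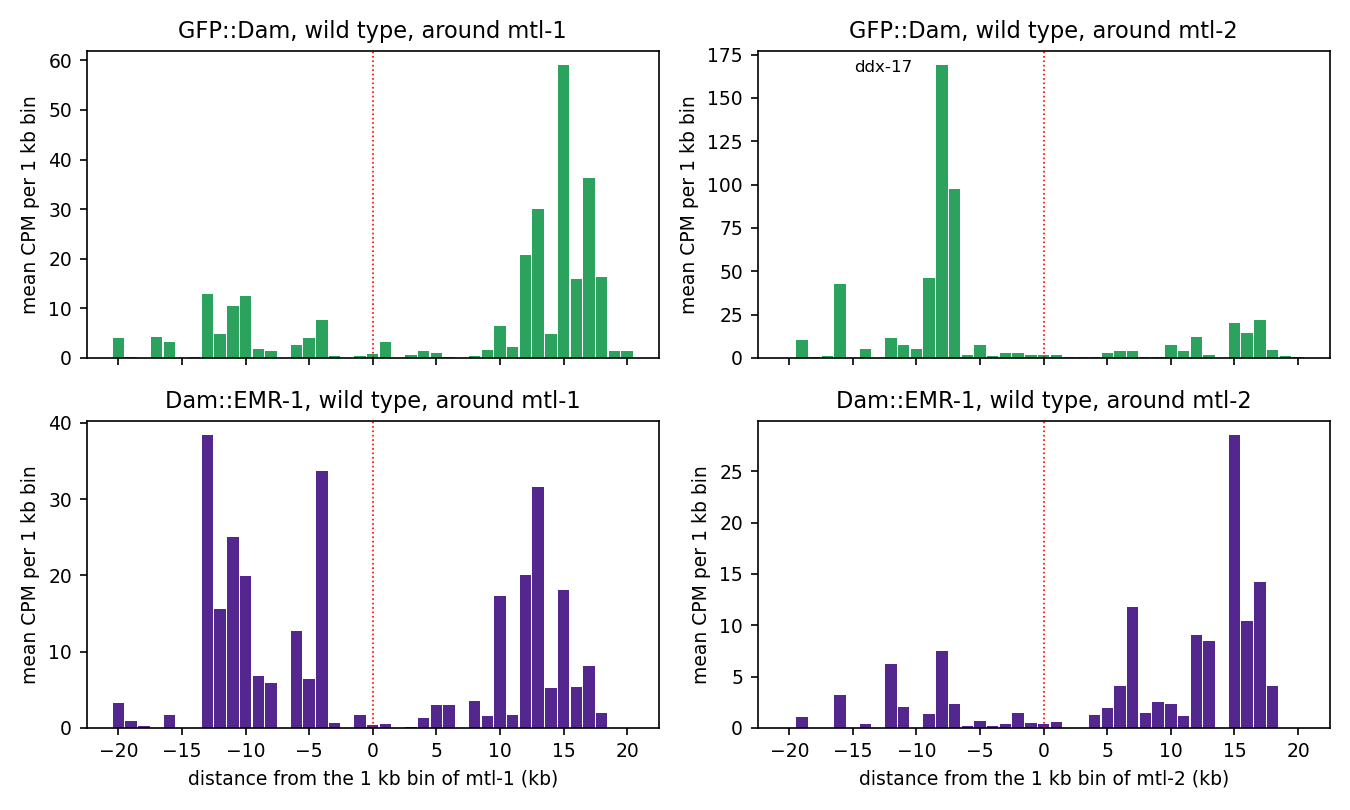
Mean CPM per 1 kb bin over the 3 wild-type libraries of each fusion, as bars, against distance in kb from the bin of mtl-1 (left) or mtl-2 (right), with GFP::Dam above and Dam::EMR-1 below on different scales and a dotted line at the gene. The tallest GFP::Dam bars near mtl-2 lie on ddx-17, 7 to 9 kb before the gene, while both metallothionein genes sit in bins with few reads.

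The reads of the mtl-2 bin were not spread evenly. ddx-17, at 14008771 to 14011941 on chromosome V, encodes a DEAD-box RNA helicase. The 2 bins of 1 kb where it reaches into the 10 kb bin held 93.8% of the GFP::Dam reads there, 84.5% to 98.7% by library, and 68.2% of the Dam::EMR-1 reads. The 1 kb bin of mtl-2 itself held 0.477% of the GFP::Dam reads. With the bins of ddx-17 left out, the ratio of the rest was -2.39 ± 1.02 in wild type (edgeR adjusted p = 0.0523), -1.89 ± 1.20 with mrg-1 RNAi (0.211), -1.38 ± 0.97 in cec-4 larvae (0.259) and -1.76 ± 0.97 in the combination (0.1403). All 4 calls were lost, and all 4 values kept their sign. This division of the bin was made after its reads were seen. The pair values of the rest were below 0 in 11 of 11 pairs, from -4.06 to -0.19.

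In the 1 kb bins of the genes themselves the reads were few. The bin of mtl-1 held 65 GFP::Dam reads over 11 libraries, 1 to 15 in each, and 12 Dam::EMR-1 reads, 0 to 3 in each. Of the 11 Dam::EMR-1 libraries 6 had none. The bin of mtl-2 held 139 GFP::Dam reads, 4 to 26 in each library, and 92 Dam::EMR-1 reads, 0 to 30 in each. Replicate 3 of mrg-1 RNAi and replicate 1 of cec-4 supplied most of these, with 30 reads each. The other Dam::EMR-1 libraries held at most 10 reads there. The edgeR ratio of the mtl-1 bin was -1.44 ± 1.52 in wild type, -2.36 ± 1.87 with mrg-1 RNAi, -2.16 ± 1.47 in cec-4 larvae and -2.81 ± 1.51 in the combination (adjusted p = 0.494, 0.416, 0.367 and 0.199). That of the mtl-2 bin was -2.76 ± 1.47, 0.77 ± 1.56, -0.98 ± 1.26 and -1.02 ± 1.29 in the same order (adjusted p = 0.163, 0.773, 0.660 and 0.605). No ratio at the genes themselves was called in either direction.

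**Figure D2:**
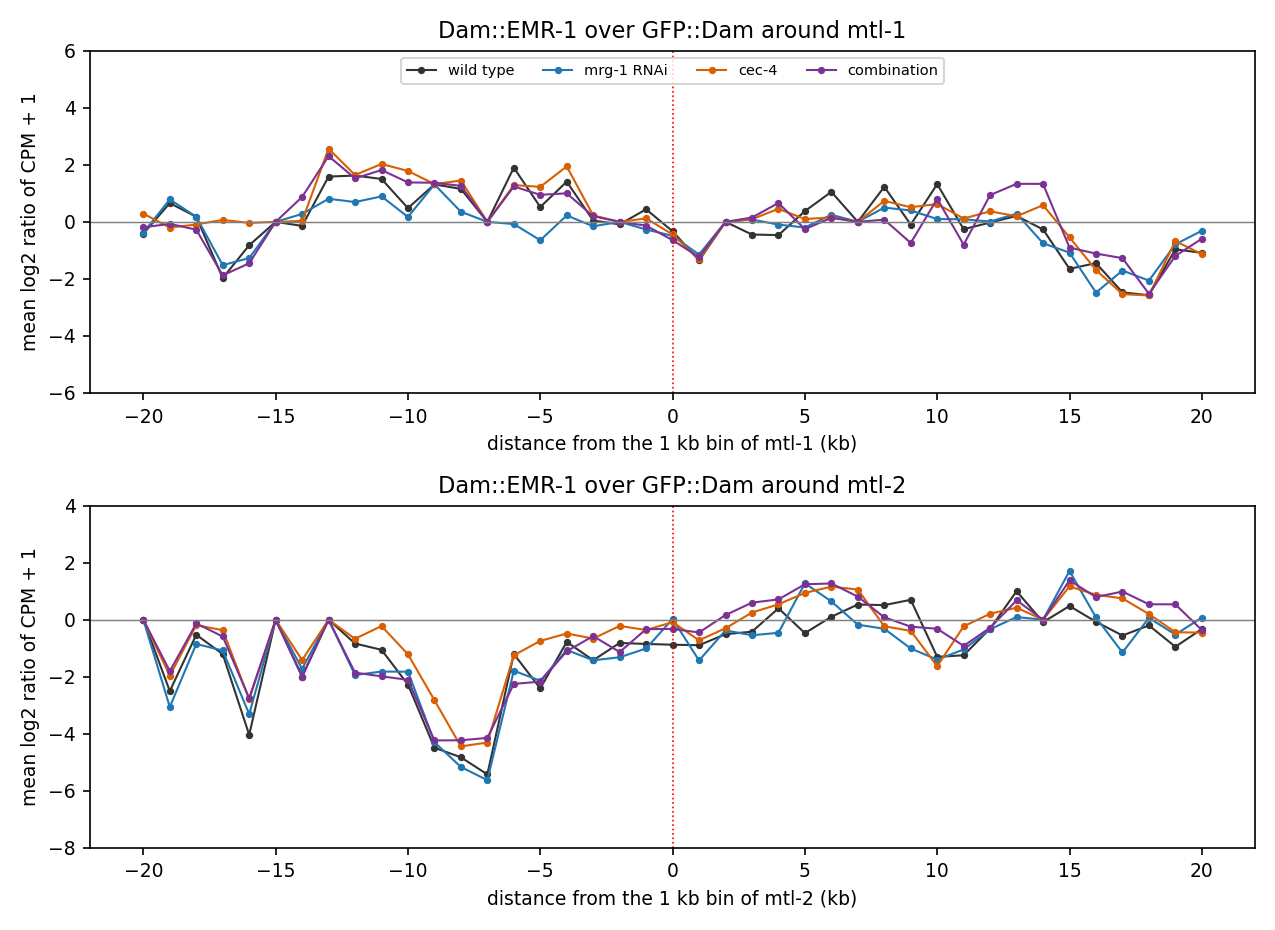
Mean over replicate pairs of log2 of the ratio of CPM + 1, Dam::EMR-1 over GFP::Dam, per 1 kb bin against distance in kb from the bin of mtl-1 (above) or mtl-2 (below), with a line per background and points at 0 where a bin has no reads. The lowest points near mtl-2 are those on ddx-17 in each background.

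Of the 41 bins around mtl-1, 30 passed the filter on low counts and 4 had no read in any library. In wild type 4 of the 30 were called lower and 0 higher, in edgeR, where 21.5% and 4.09% of the 71099 tested 1 kb bins of the genome were called. In cec-4 3 were lower and 0 higher, against 11.5% and 0.603%, and in the combination 2 were lower and 1 higher, against 15.4% and 2.12%. With mrg-1 RNAi 0 were called, where 7.50% were called lower and 0.359% higher in the genome, and DESeq2 called 4 lower. A fit with a replicate block gave 7, 5, 4 and 2 lower in wild type, cec-4, the combination and mrg-1 RNAi. Leaving out 1 library at a time gave 0 to 2 lower in wild type. The shares of the genome called in these other fits are not given here. The bin next to mtl-1 on the side of higher coordinates, over the uncharacterised gene W02F12.8, was lower in wild type (-3.24 ± 1.17, adjusted p = 0.0462) and in cec-4 (-3.54 ± 1.14, adjusted p = 0.0452). It was named because it adjoins the gene, after its value was seen. The 3 bins of W02F12.8 held 6 Dam::EMR-1 reads against 77 GFP::Dam reads in wild type and 16 against 88 in cec-4. Both calls were lost with library-size scaling, which called 0 bins around mtl-1 lower in these backgrounds.

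Of the 41 bins around mtl-2, 32 were tested and 3 had no read. In wild type 9 were called lower, with mrg-1 RNAi 4, in cec-4 larvae 4, and in the combination 6, and 0 were called higher in any background. Of all tested 1 kb bins 21.5%, 7.50%, 11.5% and 15.4% were called lower in the same order. In cec-4 and in the combination the counts are near these shares. In wild type and with mrg-1 RNAi they are only somewhat above them, and the excess was not tested. With the replicate block 11 were lower in the combination, 10 with mrg-1 RNAi and 7 in cec-4. Leaving out 1 library at a time gave 2 to 9 lower in wild type. The shares of the genome called in these other fits are not given either. Of the 4 bins that ddx-17 touches, 4 were called lower in wild type and in the combination and 3 in the other backgrounds. The next bin, with the start of aip-1, was lower in all 4 backgrounds. The bins of ddx-17 held 98 Dam::EMR-1 reads and 6744 GFP::Dam reads in wild type, and its pair value was -5.47 ± 1.73 (SD, n = 3). It was below 0 in 11 of 11 pairs, from -7.37 to -2.98.

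The neighbours of mtl-1 were mixed on both sides. cest-34 encodes a carboxylesterase of the family that also includes its neighbours cest-28 and cest-31, and had a pair value of 1.61 ± 1.43 (SD, n = 3) in wild type and 2.27 ± 1.05 in cec-4. Farther out, cest-28 had -0.19 ± 1.86 and cest-31 -1.68 ± 2.82 in wild type, with wide spread. egl-46, a zinc-finger transcription factor of neuronal differentiation, had 1.19 ± 0.58 and 1.93 ± 0.89, and was above 0 in 11 of 11 pairs. cest-34 was above 0 in 11 of 11 pairs as well. K11G9.5, which adjoins mtl-1 on this side, had 1.44 ± 1.17 in wild type and -0.02 ± 0.68 with mrg-1 RNAi, and was above 0 in 10 of 11 pairs. On the other side W02F12.2, near mtl-1, had 0.08 ± 2.62 in wild type and was above 0 in 8 of 11 pairs. There dlst-1, a subunit of the 2-oxoglutarate dehydrogenase complex, had -2.11 ± 0.33 in wild type, and sna-1, an RNA-binding factor of trans-splicing, had -2.65 ± 0.61. dlst-1 was below 0 in 11 of 11 pairs and sna-1 in 10 of 11. era-1, between them and mtl-1, had 0.12 ± 0.38 in wild type and 1.18 ± 0.47 in the combination, and was above 0 in 8 of 11.

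Before mtl-2 the pair values were mostly below 0, and after it they were mixed. ric-7, a neuronal gene needed for mitochondrial transport and neuropeptide release, had a pair value of -1.66 ± 0.23 in wild type and was below 0 in 11 of 11 pairs. aip-1, an arsenite-inducible zinc-finger protein that acts with the proteasome, had -2.58 ± 0.47 and was also below 0 in 11 of 11. end-3, a GATA factor that specifies the endoderm from which the intestine forms, had -1.61 ± 0.83 with 4 Dam::EMR-1 reads against 77 in wild type, and was below 0 in 9 of 11 and above in 1. srh-308, a chemoreceptor gene, had -1.49 ± 1.75. Reads were few at both. The stretch after mtl-2 held T08G5.15 at -0.28 ± 1.46, the insulin-like gene ins-10 at 0.34 ± 1.49 and vps-39, a subunit of the HOPS tethering complex, at -0.41 ± 0.48 in wild type. ins-10 was above 0 in 10 of 11 pairs, T08G5.15 in 8 and vps-39 in 7. T08G5.1, which adjoins mtl-2 on this side, had -1.29 ± 0.97 in wild type and was below 0 in 8 of 11, and T08G5.3 was below 0 in 8 of 11 too.

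Summed over the 20 kb on each side, the ratio before mtl-1 had a mean pair value of 1.45 over 11 pairs, above 0 in 11, and after it -0.40, above 0 in 4. By background the mean after mtl-1 was -0.72 in wild type, -0.55 with mrg-1 RNAi, -0.46 in cec-4 larvae and 0.07 in the combination. The side before minus the side after was 1.86 ± 1.03 (SD, n = 11), above 0 in 11 of 11 (exact two-sided sign-flip permutation p = 0.000977, the smallest 11 pairs can give). Sign flips treat the 11 pairs as independent, although they come from 3 replicate numbers that pair the libraries. With all pairs of a number flipped together the exact p of this difference was 0.25, the smallest that 3 numbers can give, so this form of the test cannot reach 0.05. The same holds for each sign-flip p here. Before mtl-2 the mean was -3.98, below 0 in 11 of 11 pairs, and after it 0.51, above 0 in 10. Here the side before minus the side after was -4.49 ± 1.51 (exact sign-flip permutation p = 0.000977). These contrasts were chosen after the 1 kb values were seen, and a step as large as that of mtl-1 is not rare. Of 100035 windows of the same make along the genome, 26.1% had a mean step at least as large in size as that of mtl-1 and 1.47% as that of mtl-2.

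**Figure D3:**
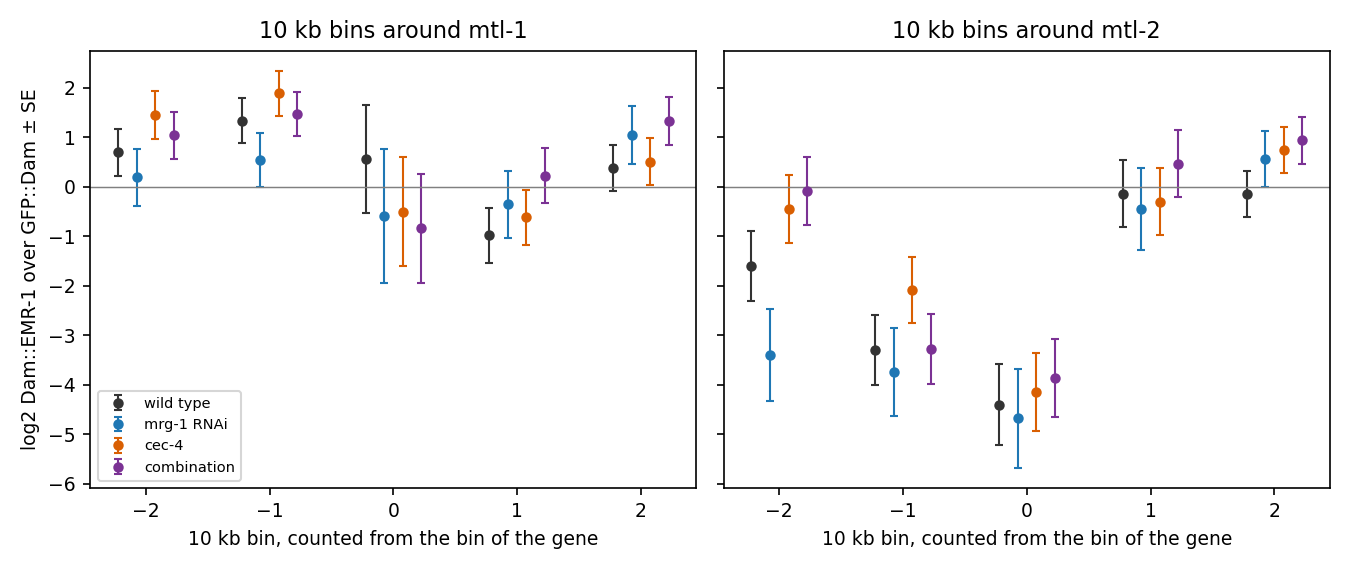
log2 Dam::EMR-1 over GFP::Dam from edgeR, with SE as bars, in the 10 kb bin of mtl-1 (left) or mtl-2 (right), marked 0, and in 2 bins on each side, by background. Values before mtl-1 lie above 0, the bin of mtl-1 has the widest errors, and the bin of mtl-2 and the bin before it lie below 0 in all 4 backgrounds.

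Among the 10 kb bins, the bin just before that of mtl-1, which holds part of egl-46 and K11G9.5, was called higher by edgeR in wild type (1.33 ± 0.45, adjusted p = 0.0174), in cec-4 (1.89 ± 0.46, adjusted p = 0.00330) and in the combination (1.46 ± 0.45, adjusted p = 0.0125). Its value with mrg-1 RNAi was 0.53 ± 0.54 (adjusted p = 0.443). Called higher were 25.4%, 21.1%, 23.7% and 18.5% of tested bins in wild type, cec-4, the combination and mrg-1 RNAi. The bin just before that of mtl-2, with ddx-17 and ric-7, was called lower in all 4, from -3.75 ± 0.89 with mrg-1 RNAi to -2.10 ± 0.67 in cec-4. The bin just after each gene was not called in any background. The second bin after that of mtl-1 had 0.38 ± 0.47 in wild type, 1.04 ± 0.58 with mrg-1 RNAi and 0.51 ± 0.47 in cec-4, and was called higher in the combination (1.32 ± 0.48, adjusted p = 0.0293). The second bin before that of mtl-1 was called higher in cec-4 alone (1.45 ± 0.48, edgeR adjusted p = 0.0208). The second bin before that of mtl-2 was called lower with mrg-1 RNAi alone (-3.41 ± 0.93, edgeR adjusted p = 0.00849). It had -1.60 in wild type, -0.45 in cec-4 and -0.089 in the combination.

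Over the whole window of 41 bins, mtl-1 had Dam::EMR-1 signal of 232, 320 and 439 CPM as the lowest, median and highest of 11 libraries and GFP::Dam signal of 189, 231 and 341 CPM. The 2 fusions overlapped. mtl-2 had 76.3, 132 and 358 CPM against 337, 481 and 740 CPM, and the highest Dam::EMR-1 libraries of cec-4 (358 CPM) and of the combination (344 CPM) reached into the range of GFP::Dam. The window pair values of mtl-1 were 0.75, -0.47 and 0.14 in wild type replicates 1, 2 and 3 and -0.47 and 0.20 with mrg-1 RNAi in replicates 2 and 3. They were 0.82, -0.09 and 1.06 in cec-4 and 0.94, 0.16 and 0.93 in the combination. Replicate 2 was the lowest in every background. The window of mtl-2 was below 0 in 11 of 11 pairs, from -2.54 to -0.95, with means of -1.92 ± 0.58 (SD, n = 3) in wild type, -1.96 ± 0.41 (n = 2) with mrg-1 RNAi, -1.54 ± 0.48 in cec-4 larvae and -1.37 ± 0.37 in the combination.

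**Figure D4:**
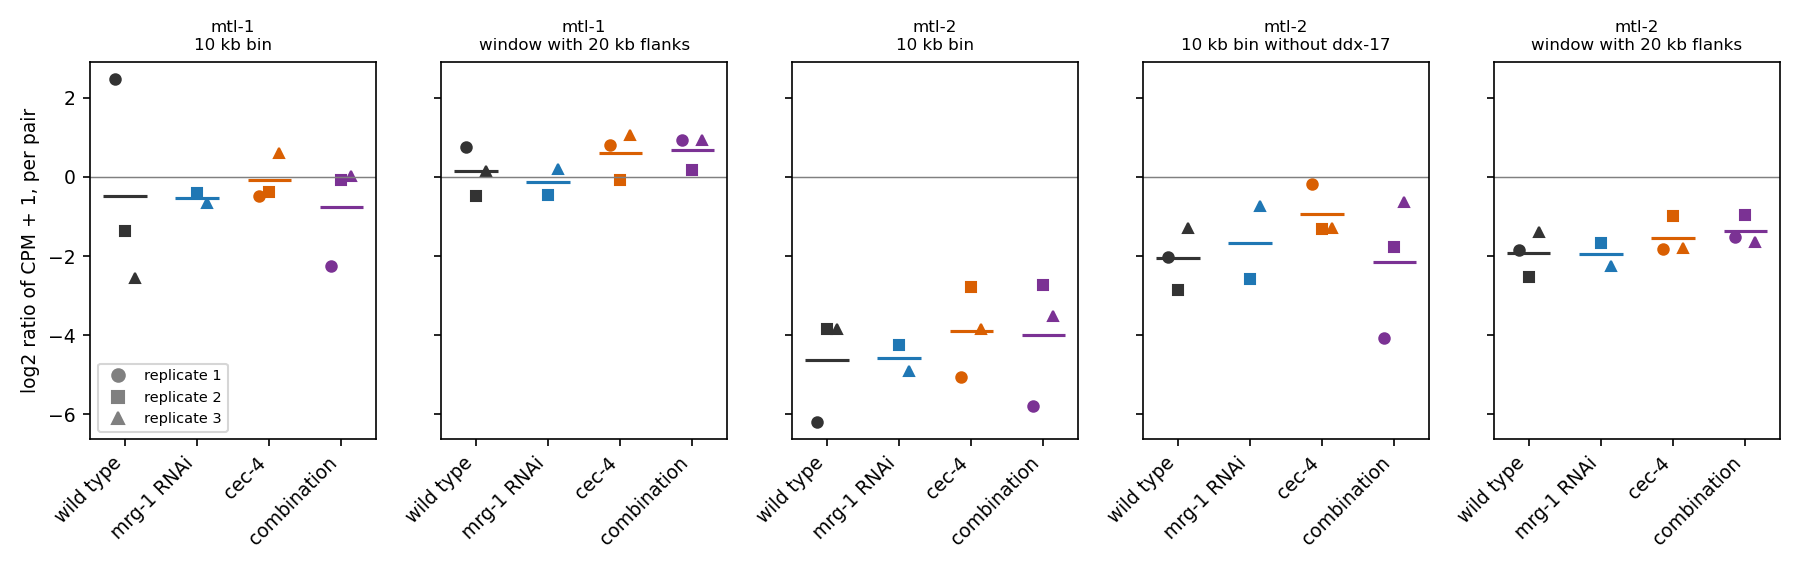
log2 of the ratio of CPM + 1, Dam::EMR-1 over GFP::Dam, for each replicate pair by background, with circles, squares and triangles for replicates 1, 2 and 3 and a line at the mean, for the 10 kb bins, the mtl-2 bin without ddx-17, and the windows with 20 kb flanks. The wild-type pairs of mtl-1 run from -2.55 to 2.47 in the 10 kb bin, and all pairs of mtl-2 lie below 0 in all 3 regions shown.

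The 10 kb bins of the metallothionein genes differed from each other. In the 1 kb bins of the genes themselves signal was mostly near or below the 1 CPM pseudocount, which pulls ratios toward 0. Median signal there was 0 CPM in Dam::EMR-1 and 0.41 CPM in GFP::Dam at mtl-1, and 0.65 and 1.42 CPM at mtl-2. Those bins therefore could not show whether the genes differ. In the 10 kb bins the pair value of mtl-1 minus that of mtl-2 was 3.78 ± 1.91 (SD, n = 11), above 0 in 11 of 11 pairs (exact two-sided sign-flip permutation p = 0.000977, the smallest possible). By background the mean was 4.14 in wild type, 4.04 with mrg-1 RNAi, 3.801 in cec-4 larvae and 3.23 in the combination. With the bins of ddx-17 left out it was 1.24 ± 1.52, above 0 in 9 of 11 pairs (exact sign-flip permutation p = 0.0166). In the 1 kb bins of the genes it was -0.13 ± 1.19, above 0 in 5 of 11 pairs (exact permutation p = 0.720), and in the 5 kb around them -0.23 ± 1.28, above 0 in 5 of 11 (exact permutation p = 0.552). Over the windows with 20 kb flanks it was 2.03 ± 0.72, above 0 in 11 of 11. Against the median 10 kb bin of chromosome V in the same pair, mtl-1 was -0.93 ± 1.22, below in 10 of 11 pairs (exact permutation p = 0.0215), and its window -0.11 ± 0.39 (exact permutation p = 0.381). For mtl-2 the value against that median was -4.72 ± 1.40, below in 11 of 11 pairs, and -2.18 ± 1.22 without ddx-17, again below in 11 of 11.

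Chromosome V is 20924180 bases long. Divided into 3 equal lengths, mtl-1 lies in the left part and mtl-2 in the right part, 283 kb and 68.8 kb from the border with the centre. The median wild-type log2 ratio of tested 10 kb bins was 1.23 in the left part, -2.15 in the centre and 1.43 in the right part. The mtl-1 value of 0.56 ± 1.10 (SE) was above 36.3% of the bins of its part and above 88.1% of those in the centre. This place rests on replicate 1, since without its Dam::EMR-1 library the fitted value was -1.69. The mtl-2 value of -4.40 was above 16.0% of the bins in the centre.

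The comparisons between backgrounds asked whether loss of the anchor CEC-4, knockdown of mrg-1 or both changes contact with EMR-1. The change in the ratio of the mtl-1 bin, from edgeR, was -1.07 ± 1.55 in cec-4 against wild type (95% interval -4.30 to 2.17), -1.15 ± 1.74 with mrg-1 RNAi (-4.78 to 2.49) and -1.41 ± 1.56 in the combination (-4.65 to 1.84). Against cec-4 the combination differed by -0.34 ± 1.55 (-3.57 to 2.89), and against mrg-1 RNAi by -0.26 ± 1.74 (-3.88 to 3.37). None was called, with adjusted p-values from 0.940 to 1.00. The first 3 comparisons share the wild-type libraries, so their like signs are not separate evidence. Without the wild-type Dam::EMR-1 library of replicate 1 they were 1.18, 1.10 and 0.84, of the other sign.

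At the mtl-2 bin the change was 0.25 ± 1.00 in cec-4 against wild type (95% interval -1.83 to 2.33), -0.28 ± 1.12 with mrg-1 RNAi (-2.62 to 2.07) and 0.53 ± 1.00 in the combination (-1.55 to 2.62). Against cec-4 the combination differed by 0.28 ± 0.99 (-1.79 to 2.35), and against mrg-1 RNAi by 0.81 ± 1.12 (-1.52 to 3.14). None was called. The lowest unadjusted p of the 10 changes was 0.377, and DESeq2 called none of them. The effect of mrg-1 RNAi in cec-4 minus that in wild type was 0.81 ± 2.33 at mtl-1 and 0.56 ± 1.501 at mtl-2, also not called.

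In each of these 5 comparisons edgeR called 0 of 9960 tested 10 kb bins of the genome (0.00%). Unadjusted p was under 0.05 in 551 bins for cec-4, 188 for mrg-1 RNAi and 732 for the combination, each against wild type, and in 80 and 304 for the combination against cec-4 and against mrg-1 RNAi. DESeq2 called 4 higher and 5 lower for cec-4, 10 higher and 16 lower for the combination against wild type, and 0 for the others. Calls did occur in 100 kb bins, where edgeR tested 1004. There 4.58% were higher and 1.10% lower for cec-4 against wild type, and 12.5% and 4.98% for the combination against wild type. For the combination against mrg-1 RNAi 0.199% were lower, and the remaining comparisons had 0 calls. The 100 kb bins of mtl-1 and mtl-2 were not called in any of the 5 comparisons. Among the 1 kb bins edgeR called 0 changes around either gene, where 0.00141% of all tested bins were called lower in cec-4 against wild type and as many in the combination against wild type, with unadjusted p under 0.05 in at most 1 of 30 bins around mtl-1 and 3 of 32 around mtl-2 in any comparison, and DESeq2 also called 0.

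**Figure D5:**
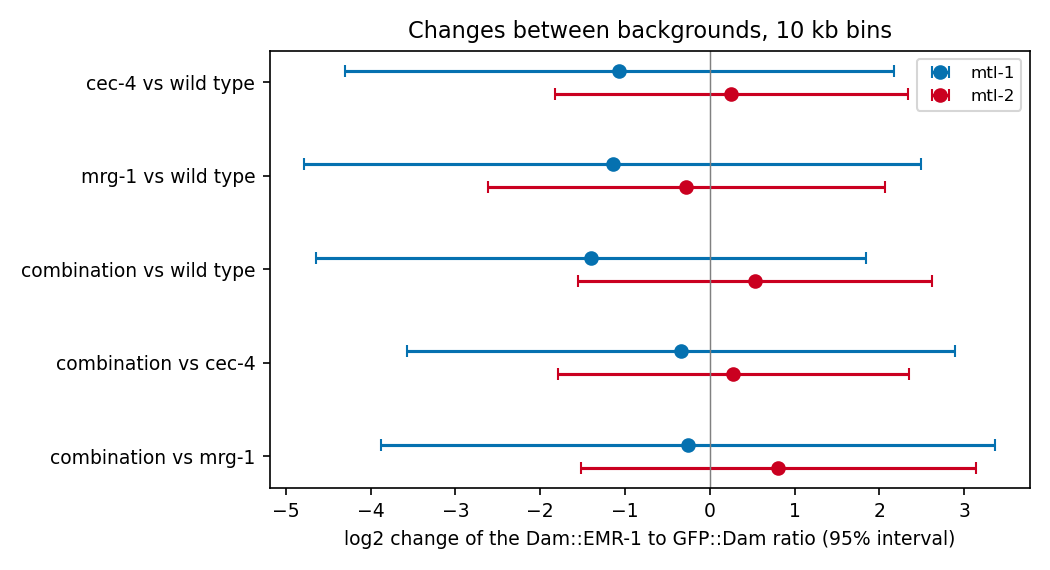
log2 change of the ratio of Dam::EMR-1 over GFP::Dam in the 10 kb bins of mtl-1 and mtl-2 for 5 comparisons of backgrounds, with the edgeR estimate as a point and its 95% interval as a bar. Every interval includes 0, and those of mtl-1 are the wider.

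The windows with 20 kb flanks gave tighter values. In exact two-sided permutation tests of the pair values, the window of mtl-1 differed by 0.45 in cec-4 against wild type (exact p = 0.4), by -0.27 with mrg-1 RNAi (exact p = 0.7) and by 0.54 in the combination (exact p = 0.2). That of mtl-2 differed by 0.39 (exact p = 0.4), -0.03 (exact p = 1) and 0.55 (exact p = 0.3) in the same order. The groups overlapped in these 6. They did not overlap at mtl-2 between the combination and mrg-1 RNAi, a difference of 0.58 (exact p = 0.2). Of the 10 comparisons made, the smallest exact p was 0.2, where 0.1 is the smallest that groups of this size can give, and the lowest value adjusted over the 10 by Benjamini-Hochberg was 0.667. Within replicate numbers the mtl-1 change was above 0 in 3 of 3 pairs in cec-4 against wild type, from 0.06 to 0.92. It was so in the combination against wild type too, from 0.19 to 0.78. These pair values are not centred on the genome median of each pair. Centred, the mtl-1 window was 0.20, 0.079 and 0.13 in wild type replicates 1, 2 and 3. In cec-4 it was 0.63, -0.18 and 0.41, below wild type in replicate 2. In the combination it was 0.55, 0.16 and 0.92, above wild type in each replicate. At mtl-2 the combination was above cec-4 in 3 of 3 pairs, by 0.03 to 0.31, and the other comparisons with 3 pairs had both signs. The difference between the combination and mrg-1 RNAi was 0.63 and 0.72 at mtl-1 and 0.60 and 0.71 at mtl-2 within numbers, above 0 in both pairs at each gene (pooled exact p = 0.3 and 0.2). Within replicate numbers the change with mrg-1 RNAi against wild type was 0.01 and 0.06 at mtl-1, so the sign of the pooled -0.27 did not hold there. Centred, mtl-1 with mrg-1 RNAi was -0.45 and 0.27 in replicates 2 and 3, below wild type in replicate 2 and above it in replicate 3.

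Each fusion was also compared alone. GFP::Dam signal in the mtl-1 bin differed from wild type by -0.14 ± 1.09 in cec-4, -0.17 ± 1.23 with mrg-1 RNAi and -0.14 ± 1.09 in the combination. Dam::EMR-1 signal there differed by -1.21 ± 1.11, -1.32 ± 1.29 and -1.54 ± 1.12 in the same order. At mtl-2 GFP::Dam signal differed by 0.55 ± 0.70, 0.20 ± 0.78 and 0.18 ± 0.70, and Dam::EMR-1 signal by 0.80 ± 0.72, -0.07 ± 0.81 and 0.71 ± 0.72. None of these edgeR differences was called (lowest unadjusted p = 0.184), nor in DESeq2, where edgeR called 0.281% of tested bins higher and 0.161% lower for Dam::EMR-1 in the combination and 0.00% in the other 5.

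Other genes of metal handling were read in the 10 kb bins that hold them. The list has 19 genes in 18 bins. In wild type 11 bins, that of mtl-2 among them, were called lower and 0 higher in edgeR, where 29.0% of all tested bins were called lower. The median log2 ratio was -2.03, and that of all tested bins was -0.11. With mrg-1 RNAi 9 were lower, in cec-4 7 and in the combination 8, against 21.1%, 20.3% and 22.9% of all tested bins, and 0 were higher in any of the 4. The bin shared by numr-1 and numr-2, nuclear proteins induced by metals, had -5.34 ± 1.21, and that of cdf-1, a zinc exporter of the cation diffusion facilitator family, had -5.26 ± 0.84. The ferritin genes ftn-1 and ftn-2 had -2.19 ± 0.64 and -2.85 ± 0.65, and pgp-1, a P-glycoprotein transporter, had -3.14 ± 0.75. Not called were cdr-1, a cadmium-responsive gene, at 0.62 ± 0.43, hmt-1, a transporter for heavy metal tolerance, at -0.09 ± 0.62, pcs-1, the phytochelatin synthase, at -0.87 ± 1.15, and smf-3, a metal importer, at 1.01 ± 0.52. aip-1 belongs to this list and shares the bin of mtl-2, so its 10 kb value of -4.40 is the same measurement.

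Of the DAF-16 list, 11 genes in 10 bins, 2 bins were called higher and 3 lower in wild type, 2 and 5 with mrg-1 RNAi, 2 and 4 in cec-4 and 3 and 5 in the combination. Of all tested bins 25.4% were called higher and 29.0% lower in wild type, so the wild-type counts are near the background. The shares called higher and lower were 18.5% and 21.1% with mrg-1 RNAi, 21.1% and 20.3% in cec-4 and 23.7% and 22.9% in the combination. Its wild-type median was -1.71. lys-7, a lysozyme gene, had 2.76 ± 0.58 and sod-5, a superoxide dismutase, 1.55 ± 0.38. The bin of the catalases ctl-1 and ctl-2 had -5.50 ± 1.12 and that of the small heat shock protein gene hsp-12.6 had -4.74 ± 1.03. No bin of either list was called in any comparison of backgrounds in edgeR. Unadjusted p was under 0.05 in at most 1 of 18 metal handling bins and in 0 of 10 bins of the DAF-16 list in each comparison, and DESeq2 was not run on the lists alone.

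Among 8045 bins with a named gene and a mean of at least 20 reads per library, the pair values most like those of mtl-1 over 11 pairs were at cgr-1 (Pearson r = 0.95), at uaf-1, a subunit of the splicing factor U2AF (0.92), and at ugt-43, of the UDP-glucuronosyltransferase family (0.91). Those most like mtl-2 were at rml-1 (0.92), at lgl-1, a cell polarity gene (0.91), and at dat-1, the dopamine transporter (0.90). The mean pair value was -1.90, 0.94 and -2.61 at the first 3 bins and -2.91, -3.56 and -1.69 at the others. The points of each correlation share libraries and depth, and these are the highest of many values, so they are given as a description.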

How the data were processed

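DamID was measured in 22 libraries. The authors' deposited count tables give whole read counts in bins of 1, 10 and 100 kb along ce11, per the file headers and labels. Which aligner and read filters were used is not given in the sources here. The authors' deposited log2 tables hold a value for each background, namely log2 of the replicate mean of the ratio of Dam::EMR-1 to GFP::Dam shares of reads, as recomputed from the counts. Reads carry no molecular identifiers. The errors from the edgeR and DESeq2 fits include the spread between libraries of a group as well as counting error.

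One fit in edgeR 4.0.16 (R 4.3.3; TMM scaling, filterByExpr, quasi-likelihood) covered all bins of a size and all 8 groups, with Benjamini-Hochberg adjustment over all bins. SE is the absolute log2 fold change over the square root of F. The fit was tested on simulated data. DESeq2 1.42.0 was an alternative. CPM used the totals of the 1 kb tables, and mitochondrial bins were left out. Pair values used a pseudocount of 1 CPM, which understates ratios of low bins. They were tested by exact two-sided permutation, or by exact sign flips over 11 pairs, which share 3 replicate numbers. Gene positions came from RefSeq WBcel235, and the bin of a listed gene is the one holding most of it.

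Per the labels, the strains that share a replicate number grew in parallel, and the numbers were taken to pair the libraries. Deviations from group means correlated above 0.1 in 15 of 15 same-number comparisons for GFP::Dam and 12 of 15 for Dam::EMR-1. The correlations ran from 0.45 to 0.82 for GFP::Dam and from -0.24 to 0.58 for Dam::EMR-1. They compare backgrounds within a fusion, so they do not test the pairing of a Dam::EMR-1 library with a GFP::Dam library. Genes named are mtl-1, mtl-2, protein-coding genes within 20 kb, both lists, the targeted genes and, per metallothionein gene, the 3 bins of highest Pearson r at least 100 kb away. Neighbours and list genes given are examples from these. Members, lists and tests were chosen with earlier results of these data known. The alternatives were other bins and windows, scaling, filters, pseudocounts, DESeq2, replicate blocks and leaving out each library.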

Additional observations from a re-analysis of the deposited data

How the results depend on the processing

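The low ratio of the mtl-2 10 kb bin passed the threshold in all 4 backgrounds under library-size scaling, no filter, DESeq2, the replicate block, the fit of the compared groups alone and the omission of any library, and not where ddx-17 was left out. Without the bins of ddx-17 it was -2.39 in wild type, -1.89 with mrg-1 RNAi, -1.38 in cec-4 larvae and -1.76 in the combination. In the same order it was -2.03, -1.71, -0.90 and -1.13 in a 10 kb window centred on the gene, -1.63, -0.89, -0.76 and -1.11 in a 5 kb window, and -2.76, 0.77, -0.98 and -1.02 in the 1 kb bin. In the 100 kb bin only the combination lost the call, at -0.50. The ratio of mtl-1 changed sign in wild type in the 5 kb window (-0.92), the 100 kb bin (-0.36) and the 1 kb bin (-1.44). It did so in cec-4 in the centred window (1.48) and the 100 kb bin (0.024), and in the combination in the centred window (0.57). With mrg-1 RNAi the 100 kb bin of mtl-1 was called lower (-0.76), as were 36.4% of tested 100 kb bins, and 37.3% of them had a lower value. The windows and the bin without ddx-17 hold other reads than the grid bin; the cause of the other differences was not tested. The 5 kb window and the bin without ddx-17 were added after the data were seen.

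No change between backgrounds was called at either 10 kb bin under any alternative, and signs moved freely. At mtl-1, cec-4 against wild type was 0.44 in the centred window and 0.38 in the 100 kb bin, and the combination against wild type was 0.0069 in the 100 kb bin. The combination against mrg-1 RNAi was 1.03 and 0.41 in these. At mtl-2, mrg-1 RNAi against wild type was 0.73 in the 5 kb window, 0.16 in the 100 kb bin, 3.53 in the 1 kb bin, 0.32 in the centred window and 0.50 without ddx-17. The combination against cec-4 was -0.34, -0.037, -0.23 and -0.38 in the 5 kb window, the 1 kb bin, the centred window and without ddx-17, and -0.035 with library-size scaling. The combination against mrg-1 RNAi was -0.21 in the 5 kb window and -1.79 in the 1 kb bin. Library-size scaling moved the median of all tested bins by 0.15 in wild type and 0.20 in cec-4.

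With the replicate block the change between the combination and mrg-1 RNAi at mtl-1 was 0.19 and GFP::Dam with mrg-1 RNAi 0.067, both of the other sign; as differences within replicate number, the window change with mrg-1 RNAi was 0.036 at mtl-1 and 0.0054 at mtl-2. The block changed no call at the 10 kb bins. It gave 7, 5, 4 and 2 lower 1 kb bins around mtl-1 in wild type, cec-4, the combination and mrg-1 RNAi, 1 higher in cec-4, and 10, 7 and 11 lower around mtl-2 in the last 3. DESeq2 gave 7 lower in wild type, 4 with mrg-1 RNAi and 5 in the combination around mtl-1, 1 higher in cec-4, and 17, 12, 10 and 10 lower around mtl-2. Library-size scaling gave 0 lower in wild type, cec-4 and the combination and 0 higher in the combination around mtl-1, and 3, 1, 1 and 3 lower around mtl-2. No filter gave 1, 0 and 1 lower in wild type, cec-4 and the combination and 0 higher around mtl-1. Around mtl-2 it gave 5, 0 and 2 lower in wild type, with mrg-1 RNAi and in the cec-4 strain. The shares of all 1 kb bins called under these alternatives are not given here, so these counts have no background beside them. Among all tested 10 kb bins in wild type DESeq2 called 3359 lower and edgeR 2884.

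For the fusions taken singly and the interaction no value was called under any alternative, and the sign of many differed in other windows and bin sizes, settings that were added after the data were seen. Against wild type at mtl-1, GFP::Dam was 0.17 in cec-4, 0.0070 with mrg-1 RNAi and 0.28 in the combination in the 5 kb window, 0.27, 0.23 and 0.46 in the 1 kb bin, and 0.059 in the combination in the 100 kb bin. Dam::EMR-1 at mtl-1 was 0.12 in cec-4 in the centred window, and 0.31 in cec-4 and 0.065 in the combination in the 100 kb bin. At mtl-2, GFP::Dam in cec-4 was -0.37 in the centred window, -0.16 in the 5 kb window and -0.38 without ddx-17, and in the combination -0.53 in the 5 kb window and -0.24 in the 1 kb bin. Dam::EMR-1 at mtl-2 with mrg-1 RNAi was 0.58 in the centred window, 0.99 in the 5 kb window, 3.72 in the 1 kb bin, 0.22 in the 100 kb bin and 0.74 without ddx-17, and in the combination -0.0061 in the 5 kb window. The interaction at mtl-2 was -0.55, -1.08, -3.56 and -0.89 in the centred window, the 5 kb window, the 1 kb bin and without ddx-17.

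With flanks of 10 kb the window change at mtl-1 was -0.39 for the combination against wild type and -0.73 against cec-4, and at mtl-2 -0.090 for cec-4 against wild type. With flanks of 50 kb it was 0.021 with mrg-1 RNAi and -0.089 for the combination against cec-4 at mtl-2. Centred on the genome median the mrg-1 RNAi change at mtl-2 was 0.017. The value of mtl-1 against the chromosome V median was -0.11 over its window. The difference between mtl-1 and mtl-2 was -0.13 in the 1 kb bins and -0.23 in the 5 kb windows, added after the data were seen. With sign flips by replicate number, also added then, exact p was 0.25, the smallest possible, for that difference in the 10 kb bins (3.78), for mtl-1 (-0.93) and mtl-2 (-4.72) against chromosome V and for the sides of mtl-1 (1.86) and mtl-2 (-4.49).

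Leaving out each library in turn, the ratio of mtl-1 ranged from -1.69 to 1.14 in wild type and -1.70 to 0.027 with mrg-1 RNAi. Its change ranged from -1.65 to 1.18 for cec-4, -2.26 to 1.10 for mrg-1 RNAi and -2.297 to 0.84 for the combination against wild type, -1.23 to 0.12 for the combination against cec-4 and -1.15 to 0.86 against mrg-1 RNAi. At mtl-2 the first 4 ranged from -0.34 to 1.51, -0.83 to 0.99, -0.13 to 1.79 and -0.39 to 0.87. GFP::Dam at mtl-1 ranged from -0.43 to 0.26 in cec-4, -0.72 to 0.22 with mrg-1 RNAi and -0.54 to 0.22 in the combination, and Dam::EMR-1 from -1.79 to 1.04, -2.43 to 0.93 and -2.44 to 0.70. At mtl-2 GFP::Dam ranged from -0.068 to 0.45 with mrg-1 RNAi and -0.19 to 0.42 in the combination, and Dam::EMR-1 from -0.62 to 1.19 with mrg-1 RNAi. The interaction ranged from -1.44 to 1.92 at mtl-1 and -0.71 to 1.15 at mtl-2. Counts of lower 1 kb bins around mtl-1 ranged from 0 to 2 in wild type, 0 to 1 in cec-4 and 0 to 1 in the combination, with 0 to 1 higher there. Around mtl-2 they ranged from 2 to 9 in wild type, 0 to 2 with mrg-1 RNAi, 0 to 5 in cec-4 and 0 to 6 in the combination. Leaving out each pair, the window change with mrg-1 RNAi ranged from -0.61 to 0.064 at mtl-1 and -0.34 to 0.26 at mtl-2, and the combination against cec-4 from -0.26 to 0.34 and -0.042 to 0.45. Depth limits mtl-1, with 317 Dam::EMR-1 reads over 11 libraries in its 10 kb bin.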

Other observations

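The Dam::EMR-1 reads in the 1 kb bin of mtl-2 were uneven between libraries. With mrg-1 RNAi, replicate 3 held 30 reads there, 88.2% of its reads in the 10 kb bin, and replicate 2 held 0. In cec-4, replicate 1 held 30 reads, replicate 2 held 10 and replicate 3 held 1. In the combination, replicates 1, 2 and 3 held 0, 8 and 10, and in wild type 1, 2 and 0. The GFP::Dam libraries of the mrg-1 RNAi and cec-4 pairs held 8, 12, 13, 15 and 26 reads.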
